A study of Mus musculus with 6 samples.

Results

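Genes of the cytosolic ribosomal proteins were examined in M II oocytes of aged mice that were matured in vitro with or without quercetin. A gene was taken as a member when its symbol, looked up from its Ensembl identifier, was Rpl or Rps followed by a number and at most 1 of the letters a, x and l, or was Rpsa, Rplp0, Rplp1 or Rplp2. This rule used no measured value and found 83 of the 53465 genes in the count table, 51 named for the large subunit and 32 for the small subunit. The annotation gave 80 of them as protein coding. It gave the other 3, Rpl32l, Rpl6l and Rps4l, as processed pseudogenes, which are copies of an mRNA inserted back into the genome.

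RNA was sequenced from 6 pools of M II oocytes with the Smart-seq HT kit. The donors were 9 to 10 month old female mice of the Kunming (KM) strain, primed with pregnant mare serum gonadotropin, and their germinal vesicle oocytes were stripped of cumulus cells and cultured for 16 h in M16 medium. Control pools (n = 3) had no quercetin, and quercetin pools (n = 3) had 10 μM of this plant flavonol, which was dissolved in DMSO. Each pool held 15 oocytes from 3 mice, so a value averages over animals, and whether the control medium held DMSO, and whether the mice differed between pools, is not given in the sources used here, so that p-values measure the spread between these pools and no more.

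Total counts ran from 7880467 to 9938743 per pool. Of 20 oocyte markers 19 had enough counts to be tested, and Gdf9, a growth factor secreted by the oocyte, had 52260, 46443 and 51845 counts in the control pools and 59906, 54768 and 56610 in the quercetin pools. Of 22 cumulus and granulosa cell markers 7 were at 0 counts in all 6 pools, among them Ptx3 and Amh, and Inhba had 0 to 5 counts per pool, while Nr5a2, a nuclear receptor, had 96 to 146. Cyp19a1, the aromatase of granulosa cells, had 584, 486 and 612 counts in the control pools and 598, 692 and 621 in the quercetin pools, and in CPM its quercetin pools were above its control pools (means of 64.3 in control and 74.6 in quercetin pools, adjusted p = 0.988 by edgeR's quasi-likelihood test). Its part in the results was not tested. The summed level of these 22 genes was 1291 to 1478 CPM (counts relative to the TMM-scaled library size) in the control pools and 1349 to 1969.95 CPM in the quercetin pools, and most of it was Serpine2, a secreted protease inhibitor, at 1269 ± 94.1 CPM (SD, n = 3) in control and 1649 ± 347 CPM in quercetin pools. In these bulk pools, fewer cells of a type and less RNA per cell cannot be told apart.

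Ribosomes are built from ribosomal RNA and these proteins, with a small subunit that reads the mRNA and a large subunit that joins the amino acids. In most cells ribosomal protein mRNAs are abundant and are translated together, because they begin with a run of pyrimidines, the 5′ terminal oligopyrimidine or TOP tract, on which mTOR signalling and LARP1 act. A growing oocyte builds up a store of ribosomes and mRNA, and transcription is then silent through the M II stage, so that the mRNA found there is what was stored and has not been degraded. Ribosomal protein genes have left many processed pseudogenes in mammalian genomes, and short reads of such a copy and of its parent can be hard to tell apart.

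Few counts fell on the ribosomal protein genes, and 1 gene held a large part of them. All 83 members together had 71290 counts in the 6 pools, and Rps27l held 42.7% of them. The 5 members with the most counts, Rps27l, Rplp2, Rpl32, Rps15a and Rpl4, held 67.0%. Levels between genes were compared in CPM per kb of annotated exon. On this scale 16 members were above 10 and 39 were below 1, and the median member was at 1.16 as the mean of the 6 pools' medians.

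The highest member was Rps27l, a paralogue of Rps27 in the small subunit that is also known as a p53 target, at 766, 780 and 887 CPM per kb in the control pools and 712, 731 and 444 in the quercetin pools. Its mean level over the 6 pools was 8.29 times that of the member next in order, Rpl32, and no pool of Rpl32 reached the lowest pool of Rps27l. Rpl32, a core protein of the large subunit, was at 98.2 ± 9.32 CPM per kb (SD, n = 3) in control and 75.6 ± 16.02 in quercetin pools. A part of its exon length, 20.04%, overlaps Cand2 on the opposite strand and the small nucleolar RNA gene Snora7a, and the sources used here do not say whether counting used strand.

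The proteins of the ribosomal stalk, which recruits elongation factors to the large subunit, were also among the highest members. Rplp2 was at 67.1 ± 2.19 CPM per kb (SD, n = 3) in control and 60.5 ± 16.9 in quercetin pools, Rplp1 at 51.8 ± 27.1 and 38.1 ± 19.7, and Rplp0, the stalk base, at 25.1 ± 5.46 and 25.6 ± 3.22. The pools of Rplp1 ran from 17.1 to 82.4, so that its place between Rplp2 and Rplp0 was within its own spread. Rps4l, Rplp0, Rpl4 and Rpl41 had means over the 6 pools of 31.2, 25.3, 24.1 and 24.1 CPM per kb, and their pools overlapped. Among the small subunit genes Rps14 and Rps21 followed at 16.9 and 13.8 CPM per kb. Rps14 lies on the platform of the small subunit, where the mRNA leaves. Rps15a had 3609 counts, the fourth highest number, but an exon length of 6270 bases, so that its level per kb of exon was 11.1. The order of these members depended on the length used. Per kb of coding transcript Rps14 was at 67.9 CPM, above Rplp1, Rps4l and Rplp0 at 45.0, 31.2 and 30.9, and Rps15a was at 13.4.

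**Figure D1:**
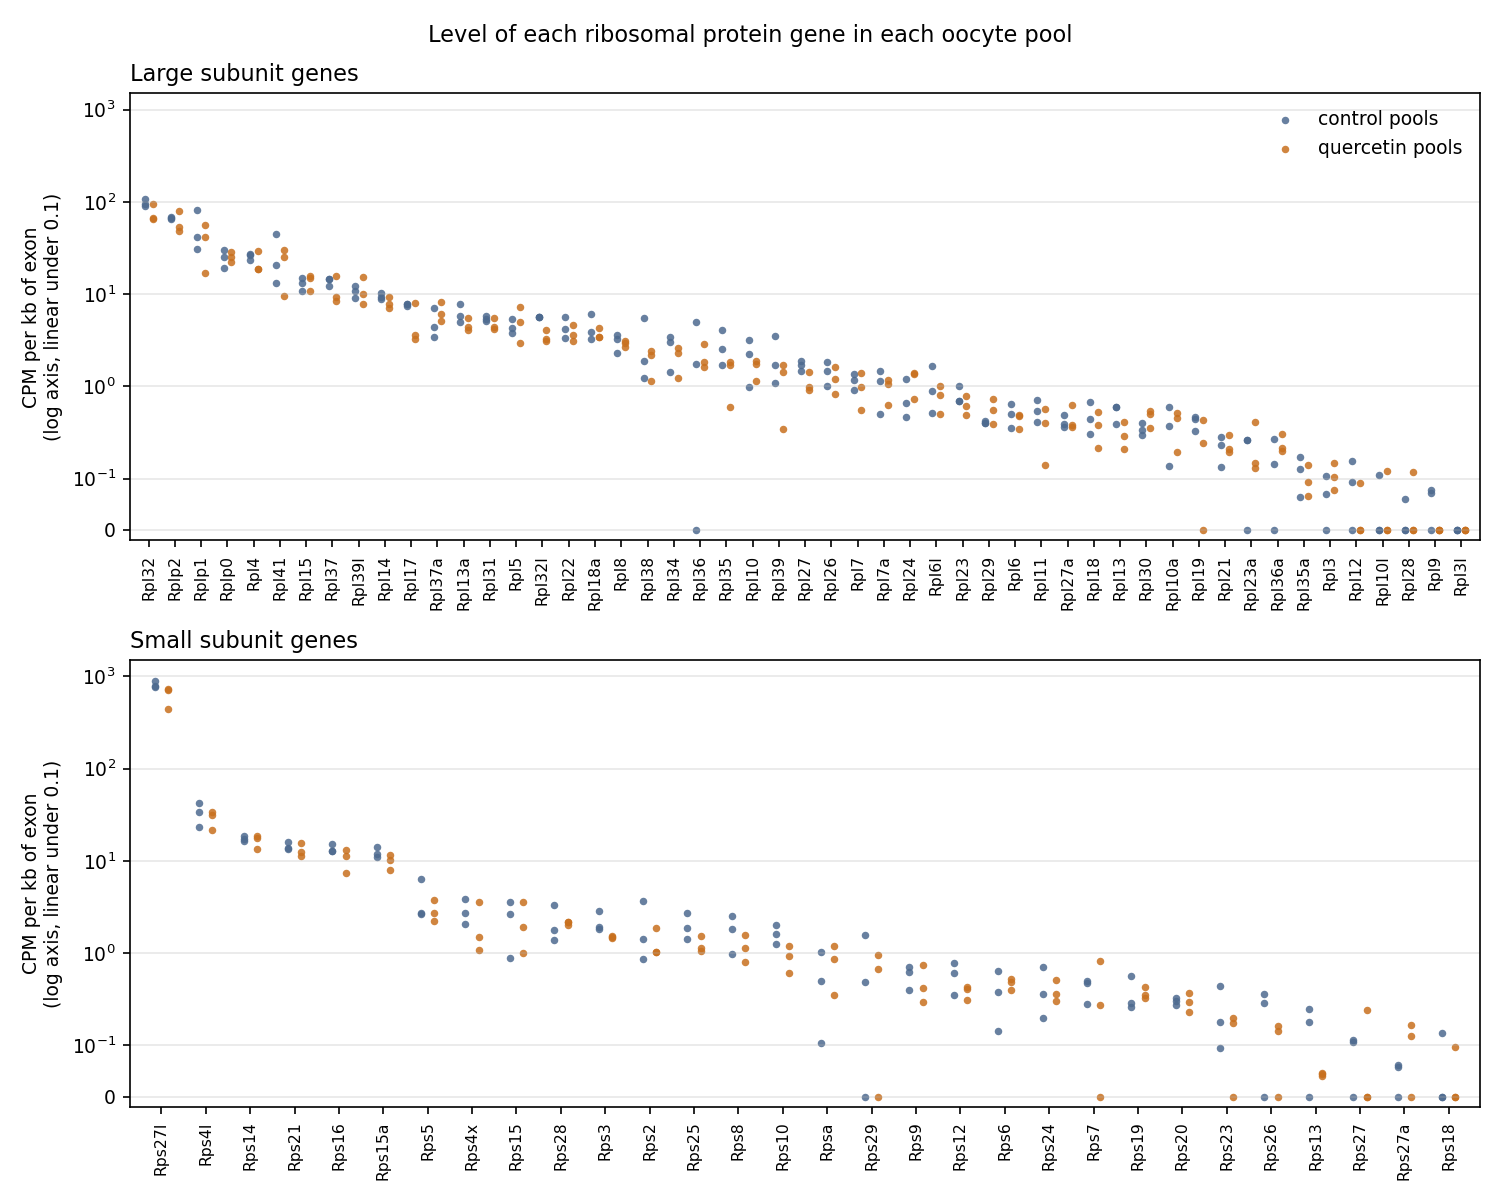
Level of 81 of the 83 genes in each pool, in CPM per kb of exon (log axis, linear under 0.1), with large subunit genes above, small subunit genes below, control pools in blue and quercetin pools in orange. Rps27l sits alone between 444 and 887, and the lowest genes have pools at 0.

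At the other end, 28 members had too few counts to be tested, with 0 to 63 counts each in the 6 pools together, and 19 members had 0 counts in at least 1 pool. They included core proteins of the ribosome. Rpl3, which lies by the peptidyl transferase centre, had 3, 0 and 2 counts in the control pools and 2, 3 and 4 in the quercetin pools. Rps18, at the head of the small subunit, had 3, 0 and 0 counts and then 0, 0 and 2. Rps6, the small subunit protein phosphorylated by S6 kinases, had 9, 5 and 2 counts and then 5, 7 and 7. Rps27a, which is made as a fusion with ubiquitin, had 0, 1 and 1 counts and then 2, 3 and 0. Rpl9 had 2, 2 and 0 counts in the control pools and was at 0 in all quercetin pools. A count of 3 corresponded to 0.329 to 0.376 CPM, so that levels under this were not measurable in a single pool, counting error only considered. Others that were not tested were Rpl10a, Rpl10l, Rpl12, Rpl13, Rpl19, Rpl21, Rpl23a, Rpl27a, Rpl28, Rpl29, Rpl35a, Rpl36, Rpl36a, Rpl3l, Rpl6l, Rps12, Rps13, Rps23, Rps26, Rps27, Rps29 and Rps7.

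The most unequal pair of paralogues was Rps27 and Rps27l. Rps27 had 0, 1 and 1 counts in the control pools and 2, 0 and 0 in the quercetin pools. Rps27l had 5570, 5294 and 6432 counts in the control pools and 4639, 5438 and 3078 in the quercetin pools. The coding sequences show how far reads of the pair can be told apart, since both have 252 bases, without insertions, and differ at 60 of them (76.2% identical), with 11 bases as the longest identical run. They are given 5′ to 3′ from GENCODE M21 (GRCm38), with the differing bases in capitals, where the coding region of Rps27 spans chr3:90212728-90213615 on the minus strand and that of Rps27l chr9:66946175-66949354 on the plus strand, introns included.
Rps27: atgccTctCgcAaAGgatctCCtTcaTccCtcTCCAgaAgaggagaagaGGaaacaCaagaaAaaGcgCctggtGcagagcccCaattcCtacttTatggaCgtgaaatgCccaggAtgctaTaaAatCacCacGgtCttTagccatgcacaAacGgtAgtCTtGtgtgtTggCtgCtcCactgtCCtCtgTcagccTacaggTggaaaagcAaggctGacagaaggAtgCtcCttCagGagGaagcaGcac
Rps27l: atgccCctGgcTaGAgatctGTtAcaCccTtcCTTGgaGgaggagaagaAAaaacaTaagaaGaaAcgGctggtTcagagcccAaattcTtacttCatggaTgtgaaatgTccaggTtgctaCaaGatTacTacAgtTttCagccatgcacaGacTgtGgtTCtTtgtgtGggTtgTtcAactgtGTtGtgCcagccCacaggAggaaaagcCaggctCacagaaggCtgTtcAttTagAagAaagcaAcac
Of the 75-base words in the coding transcript of Rps27, 98.5% also occurred in a transcript of another gene, against 12.0% for Rps27l. How reads that match several genes were counted is not given in the sources used here, so the low count of Rps27 cannot be told apart from reads lost to such copies.

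Rpl39 and Rpl39l are a short protein at the peptide exit tunnel and its paralogue known from germ cells. Of their 75-base words 7.62% for Rpl39 and 0 for Rpl39l occurred in other genes, and of their 31-base words 23.7% and 2.19%. A pseudogene, Rpl39-ps, had 105 counts in the 6 pools together, against 122 for Rpl39. How many reads of either gene were counted on the other cannot be told from the counts. Rpl39l was at 10.8 ± 1.55 CPM per kb (SD, n = 3) in control and 11.1 ± 3.79 in quercetin pools. Rpl39 was at 2.11 ± 1.26 in control and 1.18 ± 0.728 in quercetin pools. Per kb of exon the mean level of Rpl39l over the 6 pools was 6.67 times that of Rpl39. On this scale its lowest pool (7.93) was above the highest pool of Rpl39 (3.52). Per kb of the coding transcript, which is much shorter than the exons of Rpl39, the means were 11.3 and 3.85 CPM. The pools of Rpl39l and Rpl39 then overlapped. Their coding sequences have 153 bases each and differ at 23 (84.97% identical), with a longest identical run of 38. The differing bases are in capitals, for Rpl39 at chrX:37082704-37085127 on the minus strand, introns included, and for Rpl39l at chr16:10174310-10174462 on the plus strand.
Rpl39: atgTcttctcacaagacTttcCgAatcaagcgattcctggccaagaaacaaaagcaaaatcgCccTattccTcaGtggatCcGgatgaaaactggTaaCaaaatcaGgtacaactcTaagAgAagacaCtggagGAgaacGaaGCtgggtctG
Rpl39l: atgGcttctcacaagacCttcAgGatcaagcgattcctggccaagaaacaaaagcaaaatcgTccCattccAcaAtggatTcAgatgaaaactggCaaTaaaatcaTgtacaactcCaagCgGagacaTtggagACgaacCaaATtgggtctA

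In the other pairs the order of the paralogues varied. Rps4l, annotated as a transcribed processed pseudogene, had 194, 332 and 287 counts in the control pools and 164, 270 and 273 in the quercetin pools, while Rps4x, the X-linked gene, had 40, 53 and 30 and then 14, 22 and 50. Per kb of exon the level of Rps4l was 12.6 times that of Rps4x, and per kb of transcript they were at 31.2 and 4.15 CPM. Of the 75-base words of Rps4x 52.9% occurred in other genes. The reverse order held for Rpl32, with 4342 counts in all against 95 for Rpl32l, for Rpl10 with 198 against 2 for Rpl10l, a testis-expressed retrogene, for Rpl22 with 617 against 35 for Rpl22l1, and for Rpl7 with 149 against 97 for Rpl7l1. Rpl3 had 14 counts and Rpl3l, its striated muscle paralogue, was at 0 in all 6 pools, which allows up to 3 counts in a pool. Rpl36al had 108 counts against 16 for Rpl36a. Of the 75-base words of Rpl36a 84.6% occurred in other genes, and its named pseudogenes held 163 counts. Rpl6l had 40 counts against 76 for Rpl6. The order of these levels depended on the length used. Per kb of exon Rpl6l was at 1.92 times the level of Rpl6, while per kb of transcript Rpl6 was higher, at 1.16 against 0.900 CPM. Rpl22l1, Rpl7l1 and Rpl36al are paralogues whose symbols fall outside the rule.

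**Figure D2:**
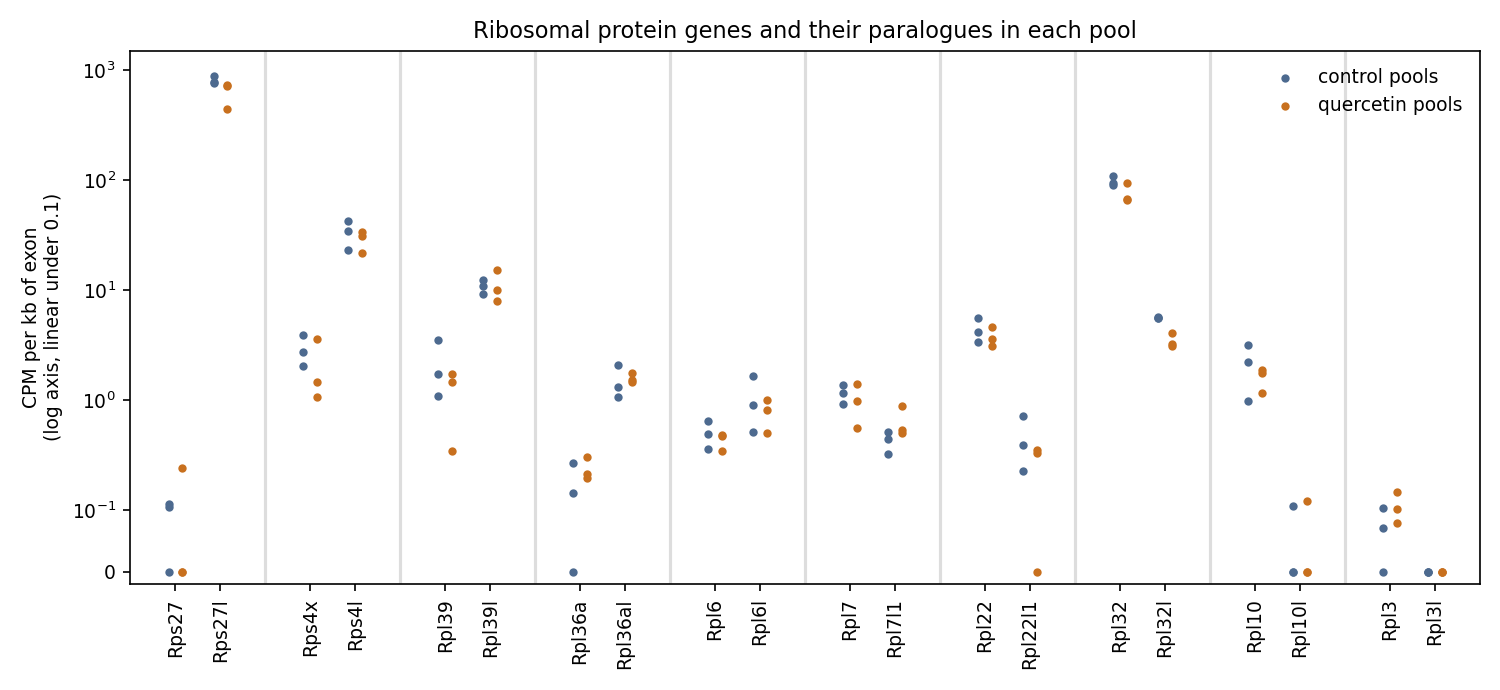
Level in each pool of 10 ribosomal protein genes and their paralogues, in CPM per kb of exon (log axis, linear under 0.1), control pools in blue and quercetin pools in orange. Rps27l, Rps4l and Rpl39l lie above their partner in every pool, while Rpl32, Rpl22 and Rpl10 lie above theirs.

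Members whose transcript shared more sequence with other genes tended to have lower levels. Across the 83 genes the level, in CPM per kb of the coding transcript, and the percent of its 75-base words found in other genes had a Spearman's rho of −0.42. With 31-base words rho was −0.30. This is a description across genes, which share libraries and are not independent. The 21 members with under 25% of words shared had a median of 425 counts in the 6 pools and 18 of them could be tested, while the 18 members with over 75% shared had a median of 41 counts and 6 could be tested. Shared sequence did not accompany low counts in each case, since Rpl10l and Rpl3l had 0.316% and 0 shared and 2 and 0 counts, and Rpl5, the 5S RNA partner, had 92.5% shared and 973 counts.

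**Figure D3:**
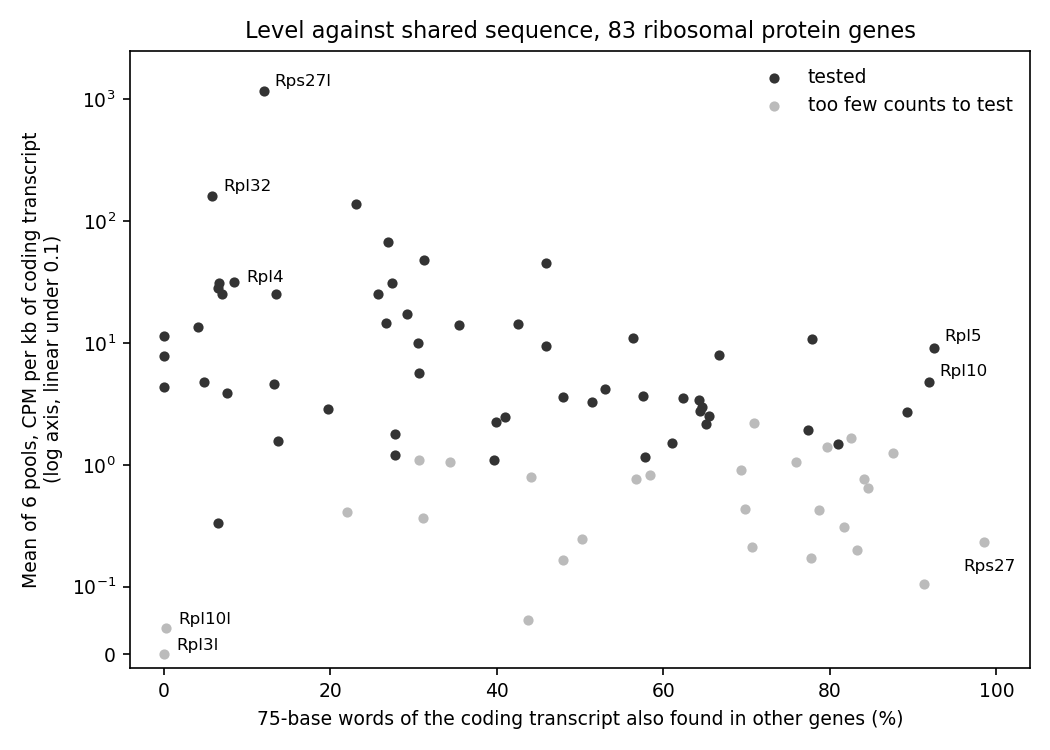
Mean level over 6 pools of each member, in CPM per kb of its coding transcript (log axis, linear under 0.1), against the percent of its 75-base words that occur in transcripts of other genes. Black points are the 55 tested genes and grey points the 28 with too few counts, whose median is at 70.3%, with Rps27 at 98.5%.

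Counts on pseudogenes named after a member were part of the same picture. The annotation named 293 pseudogenes after 60 members, 170 of which had counts, and 30 members had fewer counts than their own pseudogenes together. Rpl10 had 198 counts and its pseudogenes 3549, most of them on Rpl10-ps5. Rpl7a had 92 against 1981 and Rps12 had 51 against 821. Rps15a had 3609 against 6915. Pseudogene counts cannot be told apart here from reads of the parent gene. With them the ribosomal protein genes made up 0.202, 0.237 and 0.207% of all counts in the control pools and 0.154, 0.178 and 0.164% in the quercetin pools.

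The study asked how quercetin changes the transcriptome of aged oocytes, and for the ribosomal protein genes the answer from single genes was that none passed the study's criteria, a change of more than 2-fold with an adjusted p below 0.05. Testable were 55 members, 34 of the large and 21 of the small subunit, among 11842 genes. By edgeR's quasi-likelihood test 0 of the 55 passed, as did 0 of all genes (0%), and the adjusted p of the members lay between 0.988 and 0.9997. The smallest adjusted p of all tested genes was 0.073 by the same test. The paper reported up-regulated and down-regulated genes at these criteria, and why the results differ was not tested. An unadjusted p under 0.05 with a lower level was found for 1 member, Rps10 (1.82% of 55 against 1.89% of all tested genes), and with a higher level for 0 members (2.14% of all tested genes). DESeq2 gave 0 members at an unadjusted p under 0.05, and limma-voom and edgeR's likelihood ratio test gave 1 each.

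Many members had the same direction, although their adjusted p did not pass. The log2 fold change of quercetin over control was below 0 for 47 of the 55 tested members (85.5%), against 53.6% of all tested genes. Its median was −0.24 for the members and −0.03 for all tested genes, whose quartiles were at −0.24 and 0.17. In the large subunit 27 of 34 were below 0 and in the small subunit 20 of 21, with a median of −0.24 in each. With no filter on low counts 60 of the 82 members with any count were below 0 (73.2%, against 51.3% of all genes). The members share libraries and are not independent of each other.

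The count and the median depended on 1 control pool more than on the others. Without control replicate 2, 33 of 57 tested members were below 0 (57.9%, against 51.9% of all tested genes) and the median was −0.06. Without quercetin replicate 1, 43 of 58 were below 0 (74.1%, against 53.4% of all tested genes) and the median was −0.15. Leaving out any 1 of the other 4 pools gave medians between −0.36 and −0.27. Within the replicate numbers the median difference of the members in log2 CPM was −0.27, −0.36 and −0.08 for replicates 1, 2 and 3. In the quercetin pool 39, 43 and 32 of 55 members were lower, against 52.4, 51.8 and 50.1% of all tested genes.

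**Figure D4:**
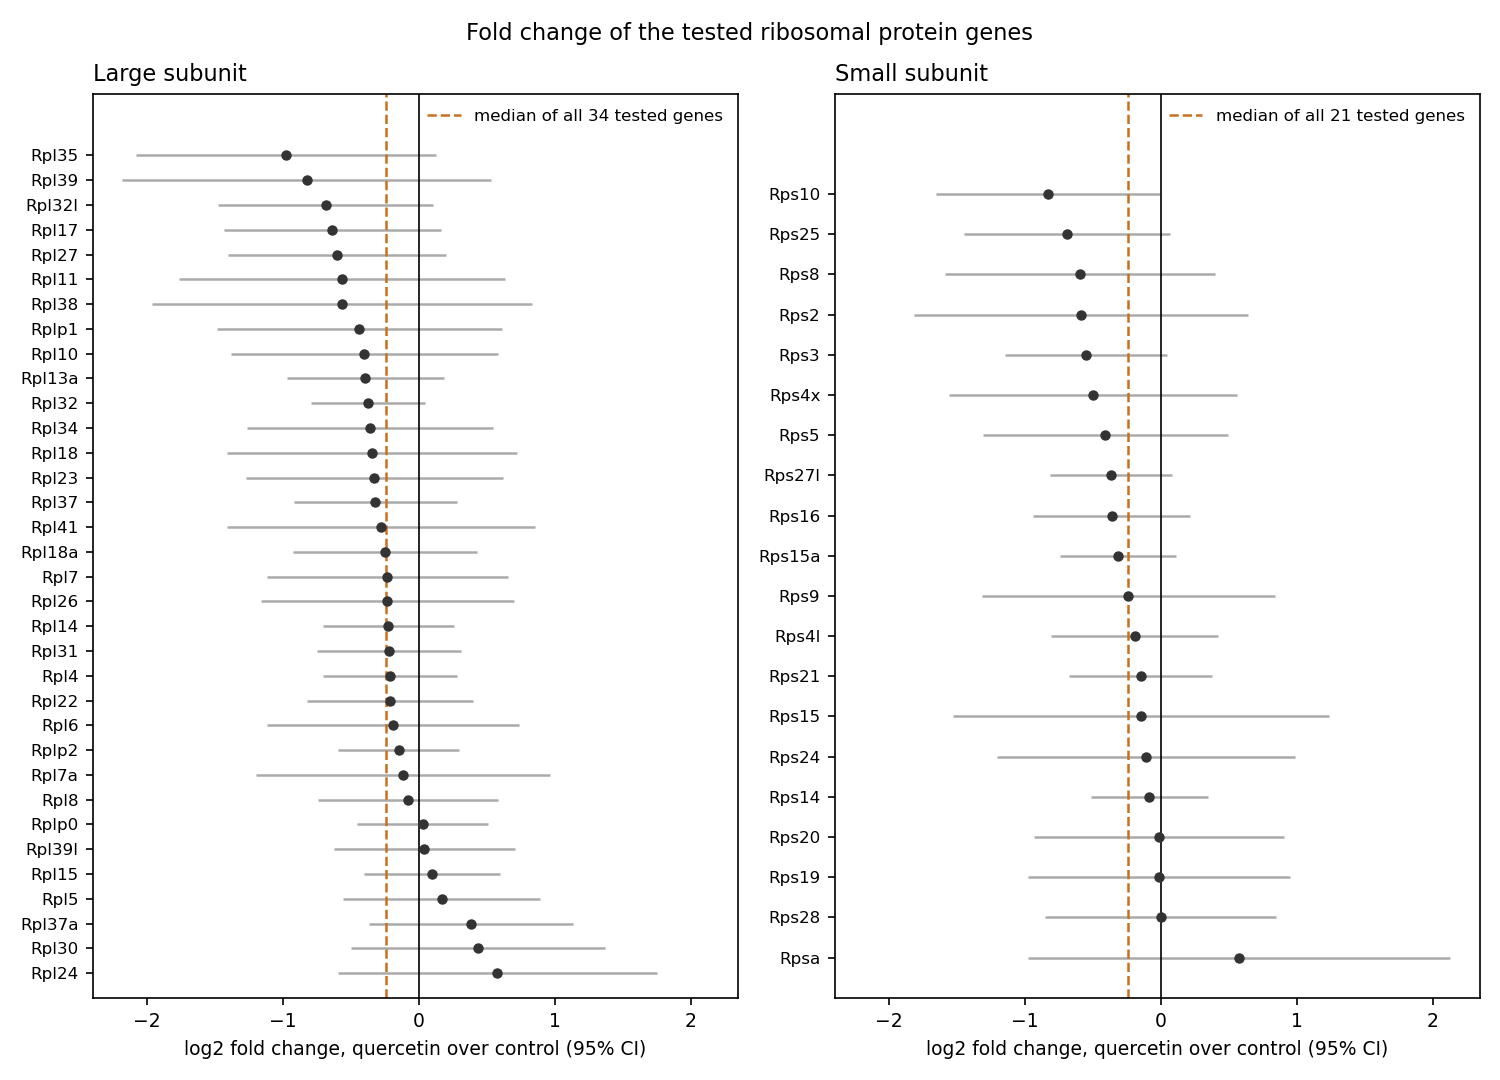
Log2 fold change of quercetin over control for the 34 large subunit genes and 20 of the 21 small subunit genes that were tested, with 95% confidence intervals from edgeR's quasi-likelihood fit and the median of all tested genes of the subunit as a dashed line. Most points lie left of 0, and the interval of 1 gene, Rps10, leaves out 0.

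Per pool, members made up 0.145, 0.166 and 0.154% of all counts in the control pools and 0.117, 0.132 and 0.110% in the quercetin pools. All control pools were above all quercetin pools, with means of 0.155 ± 0.0109% and 0.120 ± 0.0110% (SD, n = 3) and a ratio of 0.773. With the library sizes scaled by TMM the shares were 0.140, 0.157 and 0.153% against 0.124, 0.143 and 0.105%, and the groups overlapped. Rps27l alone was 44.4, 40.4 and 47.0% of the members' counts in the control pools and 46.9, 41.5 and 34.4% in the quercetin pools. Without Rps27l the shares were 0.0804, 0.0992 and 0.0813% against 0.0622, 0.0771 and 0.0725%, which did not overlap, but overlapped when scaled by TMM.

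Other counts moved with the groups as well. The 13 protein genes of the mitochondrial genome took 2.77, 2.59 and 2.23% of all counts in the control pools and 2.09, 2.00 and 1.86% in the quercetin pools. The genes CT010467.1 and Gm42418, which hold ribosomal RNA sequence, took 0.0837, 0.0966 and 0.0631% and then 0.0370, 0.0328 and 0.0417%. Their part in the members' shares was not tested. Taken of the counts outside the mitochondrial genes, the members' share was 0.159 ± 0.0111% in control and 0.122 ± 0.0112% in quercetin pools.

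Rps10, a protein of the small subunit head near the mRNA entry, was the member with an unadjusted p under 0.05. It had 33, 24 and 41 counts in the control pools and 17, 25 and 12 in the quercetin pools. In CPM the control pools ran from 2.89 to 4.61 and the quercetin pools from 1.41 to 2.74, without overlap, and the log2 fold change was −0.83 (SE 0.36, 95% CI −1.65 to −0.01). Its unadjusted p was 0.0489 and its adjusted p 0.988 (edgeR's quasi-likelihood test), and the exact permutation test of 3 pools against 3 gave 0.1, the smallest p it allows. Of its exon length 28.7% overlaps other genes, among them the readthrough gene RPS10-NUDT3 on the same strand, and 51.4% of its 75-base words occur elsewhere.

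The pools of 5 members did not overlap and were lower with quercetin (9.09% of 55, against 5.17% of all tested genes), and for 0 members were they higher (5.42% of all tested genes). Besides Rps10 these were Rps27l, Rps3, Rpl27 and Rpl32l, of which Rpl27 and Rps3 were chosen for naming after their values were seen. Rps27l had a log2 fold change of −0.37 (SE 0.20, 95% CI −0.81 to 0.08), and by TMM-scaled CPM its control pools ran from 625 to 724 and its quercetin pools from 362 to 596. Rps3, a small subunit protein at the mRNA entry with a further role in DNA repair, had 76, 106 and 72 counts in the control pools and 55, 61 and 55 in the quercetin pools, with a log2 fold change of −0.55 (SE 0.26). Rpl27, a large subunit protein, had 26, 22 and 20 counts and then 12, 20 and 12, with a log2 fold change of −0.60 (SE 0.36). Rpl32l had 20, 19 and 20 counts and then 10, 15 and 11, with a log2 fold change of −0.68 (SE 0.35).

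Rpl35 had the lowest log2 fold change of the members, and its pools overlapped. It is a protein near the exit tunnel where the signal recognition particle docks. It had 19, 42 and 28 counts in the control pools and 6, 21 and 18 in the quercetin pools, a log2 fold change of −0.98 (SE 0.49). The exons of Rpl35 overlap Arpc5l and Wdr38 on the opposite strand over 66.2% of their length, and 89.2% of its 75-base words occur in other genes. Rps10, described above, was next in order. Rpl39 followed with 14, 42 and 22 counts and then 4, 19 and 21 (log2 fold change −0.83, SE 0.60). After it came Rps25, which some viral mRNAs need for translation, with 45, 61 and 34 and then 33, 26 and 26 (−0.69, SE 0.34). Quercetin replicate 1 was the low pool in Rpl35 and Rpl39 and control replicate 2 the high pool in all of Rpl35, Rpl39 and Rps25.

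At the other end of the order 8 members had a log2 fold change above 0, namely Rpl24, Rpsa, Rpl30, Rpl37a, Rpl5, Rpl15, Rpl39l and Rplp0. Rpl24, which bridges the subunits, had 11, 4 and 6 counts in the control pools and 6, 13 and 12 in the quercetin pools (log2 fold change 0.58, SE 0.52). Rpsa, also known as the laminin receptor, had 3, 27 and 14 counts and then 9, 25 and 32 (0.58, SE 0.69), with the widest pool spread of the tested members. Rpl30 had 9, 10 and 8 and then 12, 15 and 9 (0.43, SE 0.41), and Rpl37a had 43, 83 and 55 and then 57, 106 and 73 (0.39, SE 0.33). Rpl5, which carries 5S RNA into the large subunit and binds Mdm2, had 133, 175 and 150 and then 92, 258 and 165 (0.17, SE 0.32). The pools of the groups overlapped for all 8.

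The intervals of members with many counts were narrow for some and wide for others. Rplp2 had 1205, 1145 and 1280 counts in the control pools and 884, 1507 and 850 in the quercetin pools, with a log2 fold change of −0.15 (95% CI −0.60 to 0.30). Rpl32 had 782, 871 and 810 and then 506, 826 and 547 (−0.38, 95% CI −0.80 to 0.04). Rplp0 had 288, 350 and 448 and then 382, 339 and 359 (0.03, 95% CI −0.45 to 0.51), with a negative value of −0.05 when scaled by library size alone. Rps14 had 351, 343 and 396 and then 336, 403 and 271 (−0.08, 95% CI −0.51 to 0.35). Rpl41 and Rplp1, with 1458 and 1164 counts, had log2 fold changes of −0.28 (95% CI −1.41 to 0.85) and −0.44 (95% CI −1.48 to 0.61). Of the 55 tested members 24 had an interval within 2-fold either way. That of 27 reached a 2-fold lower level and that of 5 a 2-fold higher level. For these a change of this size in that direction was not excluded by the interval. The 19 tested members with 500 counts or more had a median log2 fold change of −0.21 and the 36 with fewer −0.29.

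Pools of the same group also differed among themselves. The median SD within groups was 0.35 in log2(CPM + 0.5) for the 55 members and 0.30 for all tested genes. Relative to the mean of the control pools, the median member was at −0.10, 0.25 and −0.08 in control replicates 1, 2 and 3 and at −0.41, −0.09 and −0.13 in quercetin replicates 1, 2 and 3, while the median of all tested genes stayed within 0.01 of 0. Control replicate 2 was the highest control pool for 34 of 55 members and quercetin replicate 1 the lowest quercetin pool for 30 of 55. Rpl41, a peptide of the large subunit, showed it with 138, 440 and 216 counts in the control pools and 90, 325 and 249 in the quercetin pools. Rplp1 had 137, 342 and 187 and then 68, 255 and 175.

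**Figure D5:**
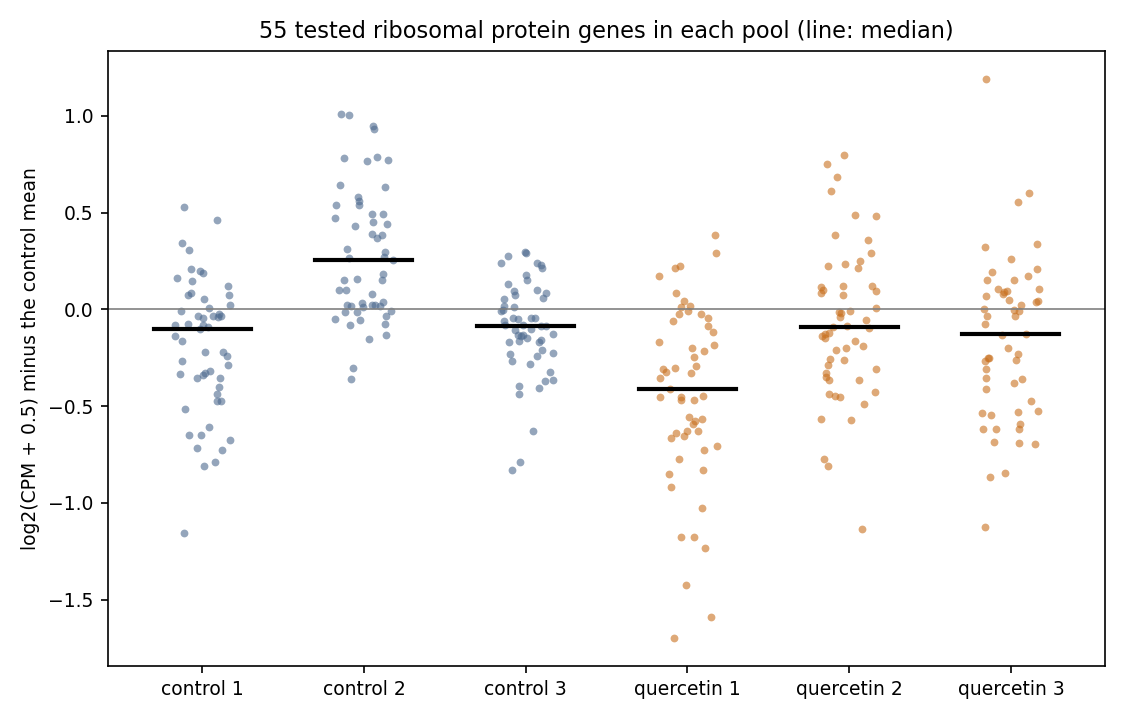
Each point is 1 of the 55 tested members in 1 pool, as log2(CPM + 0.5) minus the mean of the 3 control pools, with the median of each pool as a line. The medians of control replicate 2 (0.25) and quercetin replicate 1 (−0.41) stand apart, and the other 4 lie between −0.13 and −0.08.

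The starts of the genes were searched for a TOP-like run, since it is the feature that ribosomal protein mRNAs are known for. The run was defined as a C that follows an A or G within 5 bases of the start and opens at least 5 unbroken C or T bases on the gene's strand. RefSeq (GRCm38.p6) gave starts for 61 of the 83 members, and 18 of these 61 genes (29.5%) had the run at 1 or more starts, against 16.5% of the 8200 tested genes with a start. By start it was 24.7% of the members' 73 starts and 12.4% of all 32851 starts. The 30 bases around the start are shown for Rps10, the member with an unadjusted p under 0.05, for the upstream start of Rps27l and for Rps27 and Rpl13a, with the run in capitals, and for Rplp2 and Rpl4, high members without it, from chr17:27635230-27635259 (minus), chr9:66946071-66946100 (plus), chr3:90213634-90213663 (minus), chr7:45128731-45128760 (minus), chr7:141447636-141447665 (plus) and chr9:64173372-64173401 (plus).
Rps10: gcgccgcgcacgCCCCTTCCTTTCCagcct
Rps27l: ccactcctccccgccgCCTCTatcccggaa
Rps27: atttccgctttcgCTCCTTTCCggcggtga
Rpl13a: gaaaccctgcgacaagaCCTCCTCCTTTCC
Rplp2: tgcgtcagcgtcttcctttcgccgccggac
Rpl4: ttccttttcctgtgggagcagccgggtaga
Each window has 15 bases before the start and 15 from it on, and a run further off, as in Rpl4, or one that opens with T, as in Rplp2, was not counted. Among tested members the 11 with the run had a median log2 fold change of −0.37, 10 of them below 0, and the 31 without it −0.22, 25 below 0.

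In the other gene lists of the pathway the median log2 fold change lay nearer to 0. Of 7 ribosome components outside the symbol rule 6 were tested, 3 on each side of 0, with a median log2 fold change of −0.003. Rack1, the signalling scaffold on the small subunit, had 1990, 1470 and 1825 counts in the control pools and 1960, 2021 and 1488 in the quercetin pools (log2 fold change 0.09, SE 0.17, and −0.01 when scaled by library size alone). Fau, a ubiquitin-like fusion with a small subunit protein, had 120, 196 and 190 and then 114, 123 and 142 (−0.39, SE 0.25). Rps3a1 had 240, 189 and 207 and then 186, 230 and 169 (−0.09, SE 0.20).

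Translation factors and other genes known for a TOP mRNA were below 0 in 9 of 14 tested, with a median of −0.05, and translation initiation factors in 21 of 37, with a median of −0.06. Ribosome assembly factors were below 0 in 44 of 69 (median −0.06), and genes of RNA polymerase I, which makes ribosomal RNA, in 5 of 11 (median 0.05). Regulators of TOP mRNAs were below 0 in 8 of 16 (median −0.003). Unadjusted p values under 0.05 were found for Npm1, the nucleolar chaperone (log2 fold change 0.37), Dimt1, an rRNA methyltransferase (0.72), Larp1b, a relative of the TOP-binding Larp1 (0.49), Wdr12, of the large subunit assembly complex PeBoW (−0.70), and Gnl3 or nucleostemin (−0.56), each with an adjusted p of 0.988, all by edgeR's quasi-likelihood test.

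Mitochondrial ribosomal proteins, which work in a separate ribosome, were below 0 in 45 of 71 tested genes with a median of −0.08. Among them Mrps15 (log2 fold change −0.85) and Mrpl46 (−1.33) had an unadjusted p under 0.05, both with an adjusted p of 0.988. The 13 protein genes of the mitochondrial genome were all below 0, with a median of −0.31, and 7 of them had pools that did not overlap and were lower with quercetin (5.17% of all tested genes). Differences between these medians and that of the cytosolic members were not tested.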

How the data were processed

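The authors aligned Smart-seq HT reads to GRCm38 and deposited counts, the number of reads per Ensembl gene and pool, not normalized. The paper's methods name Hisat2, the submitters' processing notes TopHat2 2.0.6 and CASAVA 1.8. The counting program and its handling of strand and of reads that match several genes are not given in the sources used here. Conditions and replicate numbers came from the labels. Symbols matched 53274 of 53465 identifiers, and coordinates, transcripts and lengths came from GENCODE M21.

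Genes passing filterByExpr (minimum count 10) were fitted with edgeR 4.0.16 (TMM, quasi-likelihood, R 4.3.3), with Benjamini-Hochberg adjustment over 11842 genes, and the fit was tested on simulated counts. DESeq2 1.42.0 and limma 3.58.1 were alternatives. CPM used TMM-scaled libraries, with mean ± SD over 3 pools. A level per kb was CPM divided by the length of the union of exons. Shared sequence was the percent of a coding transcript's 75-base words found in transcripts of other genes.

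Named were the 5 highest members per subunit, members with an unadjusted p under 0.05, the 5 highest and 5 lowest fold changes, paralogues, untested members and components outside the rule, plus genes of other lists with an unadjusted p under 0.05. The members and lists were chosen with earlier results of these data known. Some genes that these rules name are not reported here.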

Additional observations from a re-analysis of the deposited data

How the results depend on the processing

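No member passed the criteria under any of the alternatives run (scaling, filter, test, replicate block, pseudogene counts added to their parent, or 1 pool left out), and none of the 31 single genes followed did. In the same fits the count of members with an unadjusted p under 0.05, 1 in the report, was 0 by DESeq2 and with DESeq2 size factors, 2 with at least 10 counts in every pool and with the replicate block, 3 with pseudogene counts added, 6 scaled by library size only, and 1 to 3 with 1 pool left out. The count of members whose pools do not overlap, 5 in the report, was 8 with pseudogene counts added, 10 by library size only, and 10 to 13 with 1 pool left out, where fewer pools have to separate. For this count and the one before it, the shares of all tested genes in these alternatives are not given here. Neither count can therefore be set against a background. Library size alone moved the median log2 fold change of all genes to −0.11, with 65.5% below 0, and that of the members to −0.33, with 50 of 55 below 0. Members below 0 numbered 31 of 36 among those with under 50% of words shared, where fewer were counted, and the median stayed between −0.36 and −0.06 in all alternatives. To check for pairing, the mean of its own group was taken from each pool's log2 CPM, gene by gene. Over all tested genes, these deviations in control replicates 1, 2 and 3 correlated with those in the quercetin replicate of the same number at 0.296, 0.101 and −0.03. Over the tested members these correlations were 0.533, 0.293 and −0.006. Over all tested genes the deviations of control replicate 2 correlated best with those of quercetin replicate 3, at 0.176, so a pairing by number was not established. The replicate block left 45 of 55 members below 0. The difference in the members' share of counts, −0.0351 percentage points, was −0.0499 with pseudogenes, −0.0164 without Rps27l and −0.0114 without Rps27l on TMM-scaled libraries, the last 2 chosen after seeing the data. The median level of 1.16 CPM per kb was 1.99 by the longest transcript, 2.48 by the coding transcript and 7.30 by the words that no other gene holds, by construction of the shorter lengths. The sign changed for 10 of the 31 genes in some alternative. By library size only these were Rack1 (−0.0067), Rpl39l (−0.0636) and Rplp0 (−0.0520), and with pseudogenes added Rpl5 (−0.0832). With 1 pool left out the range was −0.0231 to 0.213 for Rack1, −0.380 to 0.00571 for Rpl22, −0.10 to 0.41 for Rpl36al, −0.26 to 0.24 for Rpl39l, −0.18 to 0.44 for Rpl5, −0.571 to 0.0430 for Rpl7, −0.12 to 0.20 for Rplp0, −0.823 to 0.0673 for Rplp1, −0.172 to 0.0503 for Rps14 and −0.393 to 0.0230 for Rps4l. The cause of these shifts was not tested.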

Other observations

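Some ribosomal protein genes and their pseudogenes, chosen after their values were seen, had a similar pool pattern. Rpl17, a large subunit protein, had 89, 86 and 92 counts in the control pools and 38, 40 and 90 in the quercetin pools, and 3 of its pseudogenes had the same low quercetin replicates 1 and 2, with 201, 195 and 220 and then 91, 99 and 205 counts on Rpl17-ps10. Rpl17-ps3 had 170, 176 and 206 and then 81, 76 and 169, and Rpl17-ps8 had 78, 58 and 84 and then 28, 24 and 65. Rps15a had 785, 615 and 615 and then 516, 655 and 423, and Rps15a-ps7 had 646, 624 and 548 and then 434, 547 and 390. How many reads of a parent gene were counted on its copies cannot be told from the counts, so these were not counted as separate results.

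Of 44 pseudogenes named after a member that could be tested, 39 had a log2 fold change below 0 (53.6% of all tested genes were), with a median of −0.29, and 9 had pools that did not overlap, all of them lower with quercetin (5.17% of all tested genes). The lowest unadjusted p was that of Rpl17-ps5, with 58, 51 and 38 counts in the control pools and 10, 15 and 29 in the quercetin pools (log2 fold change −1.41, SE 0.41, adjusted p = 0.988 by edgeR's quasi-likelihood test). Copies of Rpl7a lay on the other side of 0, with 58, 48 and 59 and then 45, 98 and 98 counts on Rpl7a-ps10 (0.56, SE 0.31, adjusted p = 0.988). Among the marker lists, oocyte markers were below 0 in 7 of 19 tested genes (median 0.09), cumulus and granulosa cell markers in 2 of 6 (median 0.07) and blood and immune cell markers in 2 of 4 (median −0.04), with 4 of the 11 genes of the last list at 0 in all pools. Ooep, a protein of the oocyte's subcortical maternal complex, had a log2 fold change of −0.92 (SE 0.38, adjusted p = 0.988) with overlapping pools, and C1qb, a complement gene of macrophages, −0.89 (SE 0.33, adjusted p = 0.988) with 49, 80 and 54 counts in the control pools and 32, 26 and 39 in the quercetin pools.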
